A study of Bos taurus and Bubalus bubalis with 9 samples.

Results

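The genes described here build and remodel the extracellular matrix or bind it at the cell surface. They were taken by symbol from the circular RNA (circRNA) tables of Xinyang buffalo and Nanyang cattle, namely the collagens, laminins, nidogens, perlecan, integrins, fibrillins, LTBPs, fibulins, lysyl oxidases, thrombospondins, SPARC and the ADAM, ADAMTS and MMP proteases, with fibronectin, tenascin C and periostin. The rule took 87 of the 5280 host genes in both tables, and 84 of the 87 had at least 1 read in the libraries used. Tenascin C was not among the rows used here, and ADAM2, FBLN5 and LTBP4 had no read in these libraries. Of the 87 genes, 51 were in both tables, 9 only in the buffalo table and 27 only in the cattle table.

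The study compared intramuscular fat (IMF) between the species. RNA was sequenced from longissimus dorsi muscle of 3 buffaloes, labelled low IMF, and from longissimus dorsi muscle and back subcutaneous fat of 3 Nanyang cattle, whose muscle was labelled high IMF. All were castrated, and were 30 months old when slaughtered after fattening. The species were raised on different farms, and the reads of both were aligned to the cattle genome, so species, farm and mapping cannot be told apart.

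A circRNA forms when the end of an exon is joined to the start of the same or an upstream exon, and the read across this back-splice junction identifies it. In skeletal muscle, each fibre is wrapped in a basement membrane of laminins, type IV collagen, nidogens and perlecan, held by integrins and dystroglycan, and fibrillar collagens fill the space between fibres. Adipocytes carry a basement membrane of their own, and proteases of the ADAM and ADAMTS families cut matrix proteins, growth factor precursors and cell surface receptors.

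The tables gave each junction in RPM, which is reads scaled to the size of the library, and whole junction reads could be recovered from them. Junction reads per library numbered 4472 to 6122 for buffalo muscle, 15440 to 27141 for cattle muscle and 12042 to 21053 for cattle adipose tissue. Between 33.7% and 61.9% of the junctions in a library rested on a single read, so most values below are small counts. Intervals in the text are 95% intervals and cover counting error only. In bulk tissue, fewer cells of a type and less RNA per cell cannot be told apart. The markers matched the tissue labels. Summed circRNA of 12 skeletal muscle marker genes (of 19 listed) was 24.4 to 32.8 RPM in cattle muscle and 0 to 0.0269 RPM in adipose tissue, and that of 9 adipocyte marker genes (of 19 listed, ADIPOQ not among them) was 0.112 to 0.185 RPM and 1.36 to 1.99 RPM, respectively.

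Matrix and integrin genes held about 1% of the circRNA reads. Buffalo muscle 1 to 3 had shares of 0.944%, 1.11% and 0.783%. The cattle muscle libraries had 0.855%, 1.03% and 1.00%, and the adipose libraries 1.52%, 1.49% and 1.07%. The exact binomial interval was widest in buffalo muscle 2, at 0.864% to 1.41% from 68 reads, and narrowest in cattle muscle 2, at 0.915% to 1.16% from 280 reads. The adipose shares lay above those of cattle muscle in all libraries, whereas the buffalo and cattle muscle shares overlapped. On the RPM scale the cattle tissues overlapped as well, with 3.49 to 6.62 RPM in muscle and 3.89 to 8.44 RPM in adipose tissue. No test of the summed share is given, because the genes were chosen with results of these data known.

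By role, the ADAM, ADAMTS and MMP genes gave the most reads, followed by laminins and collagens. Per 10000 junction reads, the 25 genes of the first group held 34.3 to 43.4 in buffalo muscle and 25.6 to 29.8 in cattle muscle. In cattle adipose tissue they held 31.8 to 51.5. The group includes ADAMTSL1 and ADAMTSL3, which are ADAMTS-like proteins without a protease domain. The shares of the muscles did not overlap and were higher in buffalo, but the order turned on the RPM scale, with 0.317 to 0.35 RPM in buffalo and 1.22 to 1.89 RPM in cattle. The difference in shares was carried by ADAM9. Without it, the other 24 genes of the group held 18.9 to 29.4 reads per 10000 in buffalo and 22.8 to 28.7 in cattle muscle. These ranges overlapped, and ADAM9 was chosen after its values were seen. The 8 laminin genes held 11.2 to 24.5 reads per 10000 in buffalo muscle, 16.4 to 23.9 in cattle muscle and 30.4 to 33.7 in cattle adipose tissue. The laminin shares of adipose tissue lay above those of cattle muscle, and the RPM values overlapped, at 1.00 to 1.91 and 0.688 to 1.54 RPM. Without LAMA4, likewise chosen after its values were seen, the shares of the other 7 laminin genes overlapped as well, at 9.97 to 19.1 in adipose tissue and 13.7 to 19.2 in cattle muscle. The 16 collagen genes held 11.2 to 17.0, 15.5 to 24.7 and 14.1 to 35.1 reads per 10000 in the same order, and these ranges overlapped. The 11 integrin alpha genes held 3.78 to 13.1, 5.18 to 14.2 and 13.4 to 15.2, and the 5 integrin beta genes 1.63 to 6.71, 2.21 to 5.83 and 1.41 to 3.80. Fibulins were seen only as 5 reads in adipose tissue.

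**Figure D1:**
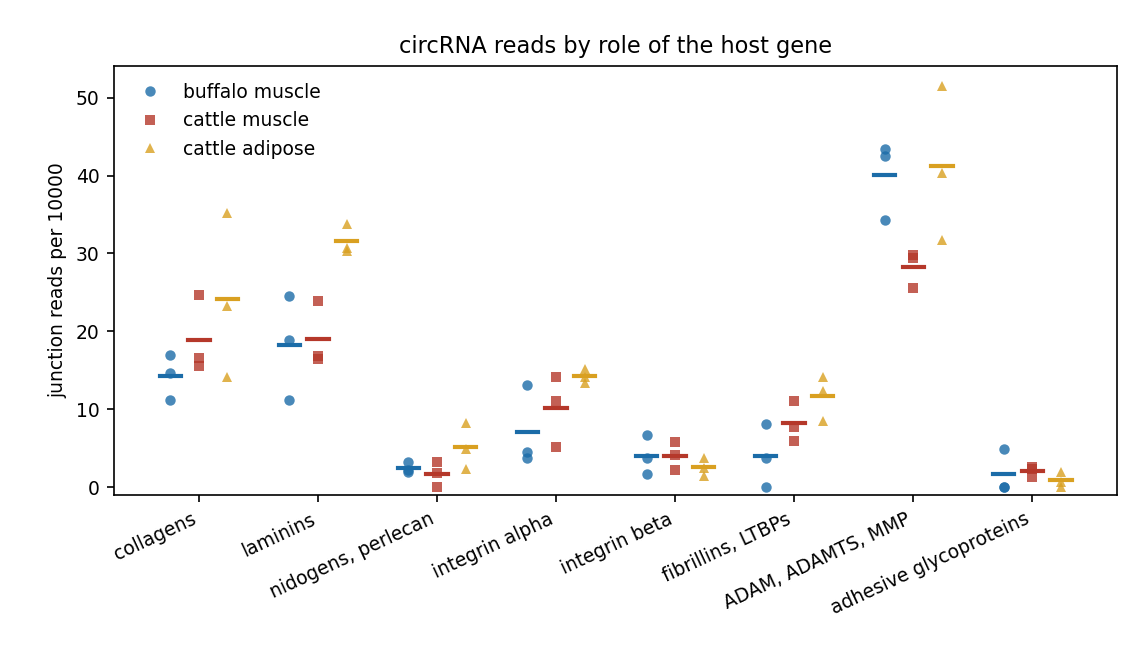
Junction reads per 10000 junction reads of the library, summed over the host genes of each role; each point is 1 library, and the bar is the mean of 3. Laminin points of cattle adipose tissue (30.4 to 33.7) sit above all muscle points, which they do not without LAMA4. Points of the ADAM, ADAMTS and MMP group in buffalo muscle (34.3 to 43.4) sit above those of cattle muscle (25.6 to 29.8), which they do not without ADAM9.

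COL15A1, the basement membrane collagen of muscle and vessels, had the most reads of all 87 genes. It held 21 of 23 collagen reads in buffalo muscle, 70 of 123 in cattle muscle and 46 of 122 in adipose tissue, so that other collagens held more of them in adipose tissue. It had 8, 9 and 4 reads in buffalo muscle, 8, 28 and 34 in cattle muscle and 13, 30 and 3 in cattle adipose tissue. The groups overlapped, and limma on log2(RPM + 0.1) gave a muscle minus adipose difference of 0.59 ± 0.50 (SE, n = 3 per group; adjusted p = 0.606). A junction on chromosome 8, 64474400 to 64484817, which joins exons and spans 10.418 kb of the genome with its introns, carried 18 of its 21 reads in buffalo muscle, 53 of 70 in cattle muscle and 23 of 46 in adipose tissue. A further junction, 64534252 to 64538627, had 1, 19 and 3 reads in adipose tissue, so that 1 library held most of them.

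Fibrillar and fibril-associated collagens had fewer reads. COL5A1, which starts and limits collagen fibrils, had 6, 2 and 4 reads in cattle muscle, 2, 19 and 3 in adipose tissue and none in buffalo muscle. The junction on chromosome 11, 106987657 to 106994805, which the table types as exon and intron, held all 12 reads in cattle muscle and 23 of 24 in adipose tissue. COL14A1, a collagen that sits on fibril surfaces, had 4, 6 and 11 reads in cattle muscle, 2, 6 and 8 in adipose tissue and none in buffalo muscle. COL1A1 had 2, 2 and 1, COL3A1 0, 4 and 1, and COL1A2 1, 2 and 0 reads in adipose tissue, and none of these 3 genes had a read in either muscle. They encode the bulk of fibrillar collagen, and for each a count of 0 allows up to 0.0259 RPM in cattle muscle and 0.0158 RPM in buffalo muscle, at 3 reads over the group.

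**Figure D2:**
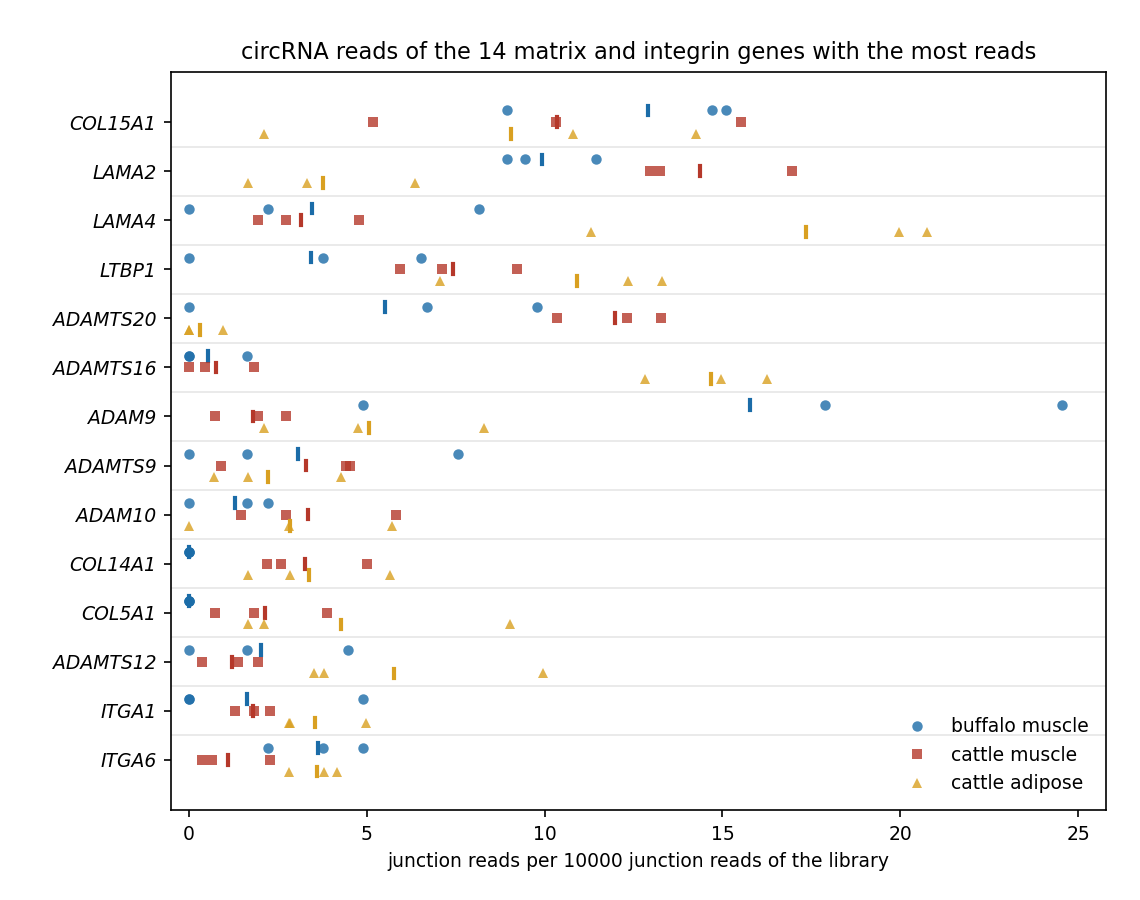
Junction reads per 10000 junction reads of the library for the 14 genes with the most reads over all 9 libraries; points are libraries and short bars are means of 3. ADAMTS16 and LAMA4 points of adipose tissue lie to the right of cattle muscle, LAMA2 and ADAMTS20 points to the left, and the mean of ADAM9 is furthest right in buffalo muscle, where buffalo muscle 2 lies among the adipose points.

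The comparison of cattle muscle with cattle adipose tissue asked which of these circRNAs differ between the tissues of 1 species. Summed per gene, 26 of the 87 genes had at least 2 reads in at least 3 of the 6 libraries. Of these, 4 passed limma at an adjusted p under 0.05, LAMA2 and ADAMTS20 higher in muscle and LAMA4 and ADAMTS16 higher in adipose tissue. Over all 1837 genes tested, 7.62% passed, 107 (5.82%) higher in muscle and 33 (1.8%) higher in adipose tissue. On shares of junction reads, the same 4 genes passed, and the split over all genes became 90 and 75. The median difference was -0.18 over the 26 genes and 0.02 over all genes tested, and 10 of the 26 differences were above 0.

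LAMA2 encodes the laminin alpha chain of the muscle basement membrane, whose loss causes a muscular dystrophy. It had 20, 46 and 29 reads in cattle muscle and 2, 7 and 9 in adipose tissue. All muscle libraries lay above all adipose libraries. The means were 0.810 ± 0.280 RPM (SD, n = 3) in muscle and 0.158 ± 0.0925 RPM in adipose tissue, a read ratio of 5.15 (exact conditional interval 3.09 to 9.05). The difference on the log2(RPM + 0.1) scale was 1.84 ± 0.48 (SE; limma, adjusted p = 0.00702).

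LAMA4 encodes the laminin alpha chain of vessel and adipocyte basement membranes, and it went the other way. It had 3, 13 and 6 reads in cattle muscle and 25, 42 and 16 in adipose tissue, again without overlap. The means were 0.185 ± 0.115 RPM in muscle and 0.740 ± 0.362 RPM in adipose tissue, a read ratio of 3.87 in favour of adipose tissue (2.39 to 6.50). The log2 difference was -1.55 ± 0.48 (SE; limma, adjusted p = 0.0314).

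Both laminin calls were lost when single libraries were left out, while the differences kept their sign, at 1.51 to 2.09 for LAMA2 and -1.86 to -1.23 for LAMA4 over the 6 libraries left out in turn. Without cattle adipose 1, cattle muscle 2 or cattle muscle 3, the adjusted p of LAMA2 was 0.0888, 0.0804 and 0.0541. Without cattle adipose 1, cattle adipose 2, cattle muscle 1 or cattle muscle 3, that of LAMA4 was 0.0800, 0.126, 0.211 and 0.141.

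The other laminins were thinly covered. LAMC1, the common gamma chain, had 0, 4 and 1 reads in muscle and 4, 10 and 5 in adipose tissue. The RPM values did not overlap, and the log2 difference of -0.94 ± 0.47 did not pass limma (adjusted p = 0.283). LAMA3 had 0, 2 and 0 reads in muscle and 2, 11 and 1 in adipose tissue (adjusted p = 0.267). LAMB1 had 1, 0 and 0 reads in muscle and 2, 0 and 12 in adipose tissue, so that adipose 3 held nearly all of them. The linker proteins that tie laminin to collagen IV had few reads, with 0, 5 and 3 in muscle and 3, 5 and 6 in adipose tissue for NID2 and a single read in buffalo muscle 2 for perlecan (HSPG2).

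ADAMTS20 and ADAMTS16 are secreted proteases with thrombospondin repeats, and their log2 differences were the largest in each direction among the 26 genes. ADAMTS20 had 16, 36 and 27 reads in muscle and 0, 2 and 0 in adipose tissue. The means were 0.677 ± 0.225 RPM and 0.0179 ± 0.0310 RPM, with a read ratio of 38.5 (10.3 to 324) and a log2 difference of 2.71 ± 0.48 (limma, adjusted p = 1.92e-05). ADAMTS16 had 0, 5 and 1 reads in muscle and 18, 27 and 23 in adipose tissue. Its means were 0.0488 ± 0.0618 RPM and 0.602 ± 0.119 RPM, with a read ratio of 11.6 in favour of adipose tissue (5.07 to 32.8) and a log2 difference of -2.30 ± 0.48 (limma, adjusted p = 0.000427). Neither gene overlapped between the tissues, and both passed in all 15 alternative fits. Some of these fits took a gene in through the tissue where it is high alone. For ADAMTS20 this was muscle, with at least 5 reads and without cattle adipose 2. For ADAMTS16 it was adipose tissue, without cattle muscle 2. Passing in those fits is no support for a difference.

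No other protease passed between the tissues. ADAMTS12, which cuts cartilage matrix proteins, had 3, 1 and 3 reads in muscle and 12, 8 and 5 in adipose tissue. Its RPM values did not overlap, and its log2 difference of -0.97 ± 0.49 did not pass limma (adjusted p = 0.284). ADAMTS9 had 7, 12 and 2 reads against 2, 9 and 1, and ADAM10, a sheddase of Notch and cadherins, had 9, 4 and 6 against 0, 12 and 4. Their groups overlapped.

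Among the receptors, ITGB6, an epithelial integrin beta chain that activates latent TGF-beta, had 6, 3 and 3 reads in cattle muscle and none in adipose tissue. At 3 reads over the group, a count of 0 allows up to 0.0266 RPM in adipose tissue. ITGB6 was the 1 gene of the 26 that met the read minimum through muscle alone, so low reads in adipose tissue were part of how it entered. No fold is therefore given, and its fitted difference, which did not pass, is not given in the text. ITGA8, a receptor on vessel and smooth muscle cells, had 0, 11 and 14 reads in muscle and 0, 4 and 0 in adipose tissue (adjusted p = 0.238), so that muscle 1 stood with the adipose libraries. The laminin receptor ITGA6 had 1, 1 and 5 reads in muscle and 5, 8 and 4 in adipose tissue, the collagen receptor ITGA1 2, 5 and 5 and 6, 6 and 4, and ITGA3 3, 7 and 2 and 2, 6 and 4. LTBP1, which holds latent TGF-beta in the matrix, was among the most abundant hosts, with 11, 25 and 13 reads in muscle and 16, 26 and 10 in adipose tissue. Its log2 difference was -0.09 ± 0.48 and its read ratio of muscle to adipose tissue 0.919 (0.609 to 1.38).

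In total, the RPM values of 7 of the 26 genes did not overlap between the tissues, which were LAMA2, LAMA4, LAMC1, ADAMTS12, ADAMTS16, ADAMTS20 and ITGB6, the last of which entered through muscle alone. Over all genes tested, this share was 20.8%, of which 12.5% were higher in muscle and 8.27% higher in adipose tissue. Beside these differences, summed circRNA of 8 endothelial marker genes (of 12 listed) was 0.252 to 0.503 RPM in muscle and 0.335 to 0.591 RPM in adipose tissue, and that of 3 fibroblast marker genes (of 13 listed) 0 to 0.166 RPM and 0.109 to 0.180 RPM. That of 4 pericyte and smooth muscle marker genes (of 10 listed) was 0.714 to 2.89 RPM and 0.326 to 1.08 RPM, and most of it was ABCC9, with 27, 120 and 74 reads in muscle and 12, 23 and 17 in adipose tissue (log2 difference 1.66 ± 0.49, limma, adjusted p = 0.0192). MYH11 had 0, 2 and 0 reads in muscle and 0, 16 and 1 in adipose tissue, and ACTA2 and NOTCH3 had at most 1 read in a library. The part of these cells in the laminin and protease differences was not tested.

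**Figure D3:**
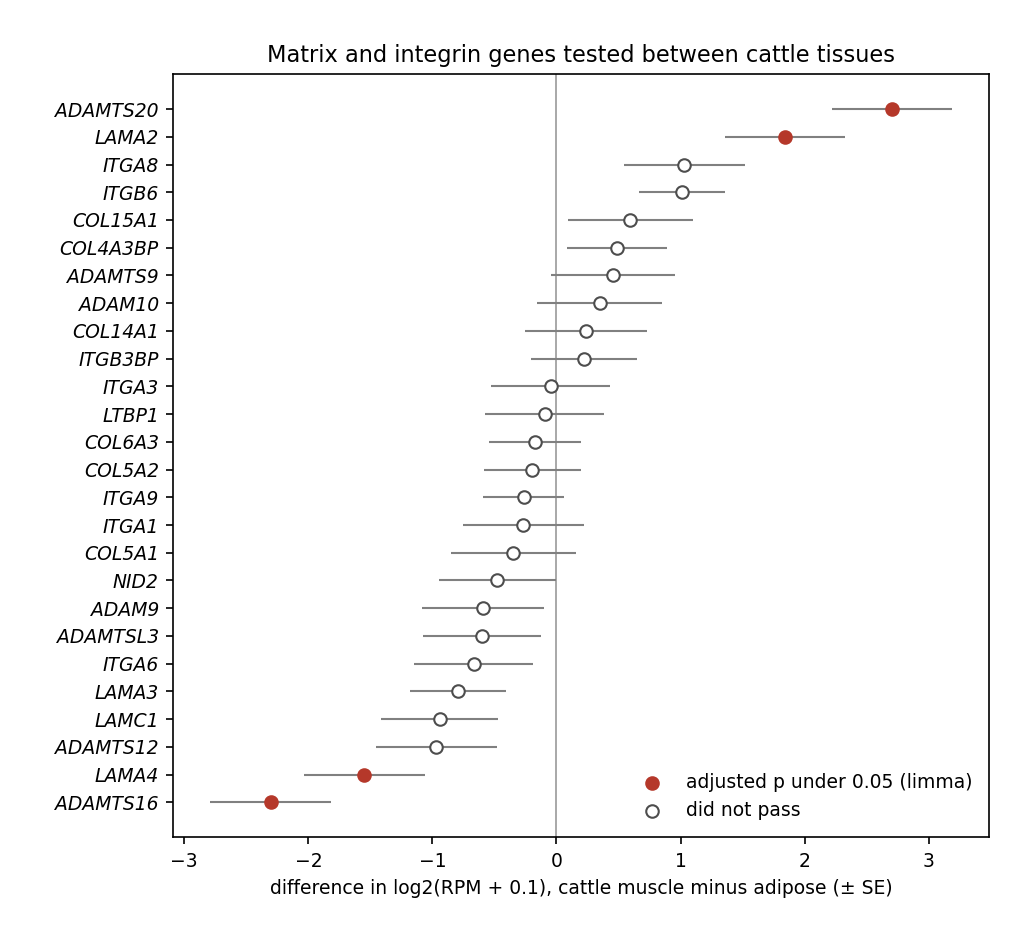
Difference in log2(RPM + 0.1), cattle muscle minus cattle adipose tissue, with its standard error from limma for the 26 genes tested; filled points passed at an adjusted p under 0.05. ADAMTS20 (2.71) and LAMA2 (1.84) lie at the muscle end, and ADAMTS16 (-2.30) and LAMA4 (-1.55) at the adipose end.

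At the level of single junctions, 23 junctions of these genes could be tested and none passed limma, against 4.8% of all 1917 junctions (4.49% higher in muscle and 0.313% higher in adipose tissue). Of the 23 junctions, 18 met the read minimum with reads of both tissues, 3 through muscle alone and 2 through adipose tissue alone. Those through 1 tissue included the ADAMTS20 junction on chromosome 5, 37287481 to 37297789, with 5, 5 and 6 reads in muscle and none in adipose tissue, and the ADAMTS16 junction on chromosome 20, 68068313 to 68074202, with none in muscle and 6, 7 and 3 reads in adipose tissue. Both passed with edgeR and TMM normalisation on the recovered reads and in limma with a block for the replicate number (the tissues came from the same 3 cattle), and the ADAMTS16 junction passed with DESeq2. Because of how they entered, these calls are no support for a difference, and their fitted values are not given. In the limma fit, 6 of the 23 junctions had an unadjusted p under 0.05. The share of all 1917 junctions at this unadjusted threshold is not given, so the 6 are no result about these genes.

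The reads of the called genes were spread over many junctions. LAMA2 (ENSBTAG00000010229) gave 24 junctions in cattle muscle and 6 in adipose tissue, and its strongest, chromosome 9, 68364871 to 68378494, had 0, 15 and 7 reads in muscle and none in adipose tissue. A LAMA2 junction of 0.243 kb, 68178495 to 68178737, had 4, 10 and 0 reads in muscle, 2, 4 and 3 in adipose tissue and 4, 0 and 1 in buffalo muscle. It held 9 of the 18 LAMA2 reads of adipose tissue and 14 of 95 in cattle muscle. LAMA4 (ENSBTAG00000008817) gave 11 junctions in muscle and 19 in adipose tissue, led by 38783447 to 38789825 with 10, 4 and 4 reads in adipose tissue.

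ADAMTS20 (ENSBTAG00000000395) gave 25 junctions in muscle and 1 in adipose tissue, and 5 of them, with 32 of its 79 reads, ended at the same position, 37297789. ADAMTS16 (ENSBTAG00000018460) gave 2 junctions in muscle and 13 in adipose tissue. Of its 68 adipose reads, 41 fell on 5 junctions that share the position 68074202, the upstream end of the circle on this minus-strand gene. The 2 strongest of these were 68061602 to 68074202, with 5, 7 and 5 reads, and 68068313 to 68074202, with 6, 7 and 3 reads. Both were present in every adipose library.

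**Figure D4:**
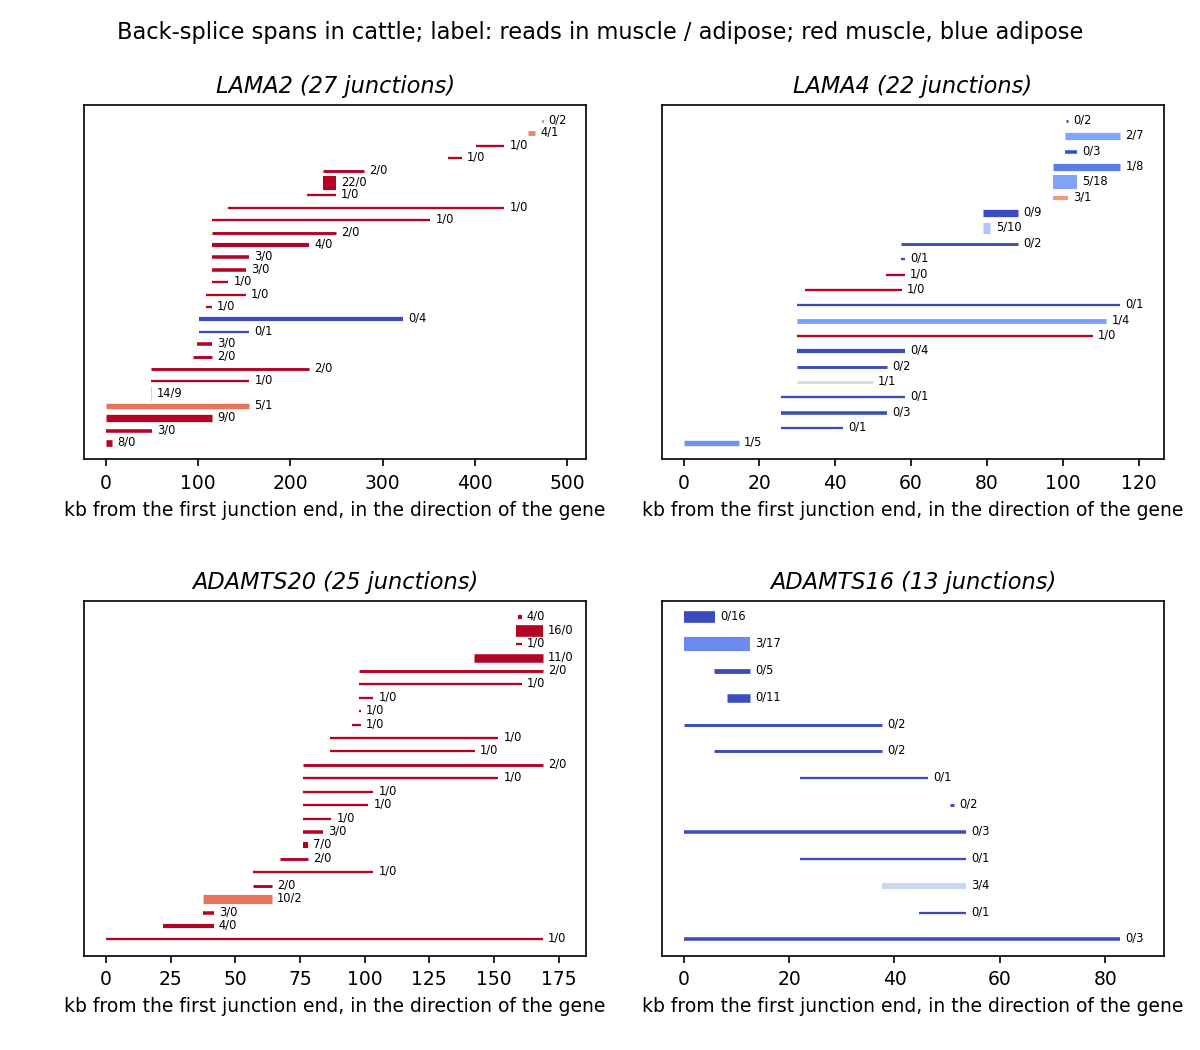
Each line is 1 back-splice junction of cattle, drawn over the span it encloses in kb from the first junction end of the gene; line width grows with reads up to 20, colour runs from muscle (red) to adipose tissue (blue), and labels give reads in muscle / adipose tissue over 3 libraries. LAMA2 (27 junctions) and ADAMTS20 (25) are mostly red, LAMA4 (22) and ADAMTS16 (13) mostly blue.

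Most junctions joined annotated exons. In cattle muscle, 197 of 209 junctions (94.3%) lay on exons, against 88.9% over all genes with a named host, and the median span was 13.7 kb against 9.62 kb. In adipose tissue, 212 of 221 (95.9%) lay on exons against 89.7%, with a median span of 11.3 kb against 10.6 kb. In buffalo muscle, 77 of 82 (93.9%) lay on exons against 90.7%, with a median span of 10.7 kb against 9.43 kb. A single read over the group stood behind 47.8%, 48.9% and 68.3% of the junctions in cattle muscle, cattle adipose tissue and buffalo muscle, against 42.1%, 39.9% and 54.8% over all genes with a named host. The cattle tissues shared 63 junctions, which is 30.1% of those in muscle and 28.5% of those in adipose tissue.

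Buffalo muscle was compared with cattle muscle on shares of junction reads, because the summed RPM of all circRNAs was 74.5 to 96.1 in buffalo and 408 to 642 in cattle muscle. The 2 tables were made separately. Skeletal muscle marker genes held 1413 to 1626 reads per 10000 in buffalo and 511 to 598 in cattle muscle. Most of this was NEB, with means of 1318 ± 129 (SD) in buffalo and 355 ± 38.8 in cattle. MYBPC1, with 153 ± 14.8 and 174 ± 26.4, was not higher in buffalo, whereas RYR1 was, with 15.2 ± 5.32 and 4.51 ± 0.890. Endothelial marker genes held 2.24 to 3.78 and 4.11 to 12.3. Those of adipocytes overlapped, at 1.89 to 11.4 and 1.83 to 4.53. The part of these in the differences below was not tested. Of the 17 genes that could be tested, 3 passed limma on log2(junction reads per 10000 + 1), with ADAM9 higher and COL14A1 and COL5A1 lower in buffalo. Over all 1321 genes tested, 22.6% passed, 57 (4.31%) higher and 241 (18.2%) lower in buffalo, so that 3 of 17 was not above the background. Of the 17 genes, 6 met the minimum of 2 reads in 3 libraries through cattle muscle alone, COL14A1 and COL5A1 among them, so low reads in buffalo were part of how they entered the test. Over all genes, 387 of 1321 (29.3%) entered in this way, and 214 of them passed. Of the other 11 genes, 1 passed, ADAM9, against 74 of 924 over all genes that entered in the same way. Without a read minimum none of the 66 genes then tested passed limma at the adjusted threshold, against 84 of 4273 over all genes. Of the 66 genes, 6 had an unadjusted p under 0.05. The share of all genes at that threshold is not given, so the 6 are no result about these genes. The median difference was -0.62 over the 17 genes and -0.45 over all genes. On the RPM scale the median over all genes moved to -1.03, 14 of the 17 genes passed and all of them were lower in buffalo, and the split over all genes became 11 higher and 933 lower.

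ADAM9 (ENSBTAG00000017455) is a membrane protease that sheds growth factors. It had 13, 3 and 8 reads in buffalo muscle and 3, 2 and 6 in cattle muscle. Per 10000 junction reads this was 24.5, 4.90 and 17.9 in buffalo and 1.94, 0.737 and 2.74 in cattle, without overlap. The ratio of the shares was 8.85 (4.18 to 20.02), and the log2 difference was 2.41 ± 0.65 (SE, n = 3; limma, adjusted p = 0.0241). On the RPM scale, where the means were 0.126 ± 0.0755 and 0.0982 ± 0.0625 RPM, the difference fell to 0.18 and did not pass (adjusted p = 0.658). The call was also lost without buffalo muscle 1 (0.0707), buffalo muscle 3 (0.0541) or cattle muscle 2 (0.0533).

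All 4 ADAM9 junctions of buffalo muscle, with 24 reads, began at the same position, 33834232 on chromosome 27. The strongest, 33834232 to 33844636, had 4, 1 and 4 reads in buffalo muscle, 2, 2 and 2 in cattle muscle and none in cattle adipose tissue. In adipose tissue, 12 ADAM9 junctions had 23 reads, and 9 of these reads began further upstream, at 33816640. ADAM9 as a whole had 10, 10 and 3 reads in adipose tissue and did not differ between the cattle tissues in limma (log2 difference -0.59 ± 0.49, adjusted p = 0.593).

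COL14A1 (ENSBTAG00000013369) was not read in buffalo muscle, and had 4, 6 and 11 reads in cattle muscle. At 3 reads over the group, a count of 0 allows a share of up to 1.89 per 10000 junction reads in buffalo muscle. The COL14A1 shares of cattle muscle, 2.59, 2.21 and 5.02 per 10000, lay above this limit. COL5A1 (ENSBTAG00000047998) had 0 reads in buffalo, with the same limit, and 6, 2 and 4 in cattle muscle. Its shares in cattle muscle were 3.89, 0.737 and 1.83 per 10000, so cattle muscle 2 and 3 lay under what a count of 0 allows in buffalo. Since both genes entered through cattle muscle alone, no folds or fitted differences are given. Neither gene could be tested when a cattle muscle library was left out, since too few libraries then had 2 reads.

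Of the 4 genes called between the cattle tissues, 3 could be tested between the species and did not pass, and ADAMTS16, with 0, 1 and 0 reads in buffalo and 0, 5 and 1 in cattle muscle, could not be tested. LAMA2 had 5, 7 and 4 reads in buffalo muscle, or 9.44, 11.4 and 8.94 per 10000, against 13.0, 16.9 and 13.2 in cattle muscle. These shares did not overlap, but the difference of -0.49 ± 0.36 did not pass (adjusted p = 0.383). ADAMTS20 had 0, 6 and 3 reads in buffalo muscle (log2 difference -1.57 ± 0.82, adjusted p = 0.216), and LAMA4 0, 5 and 1 (-0.37 ± 0.85, adjusted p = 0.807). COL15A1 (0.37 ± 0.47), ITGA6 (1.21 ± 0.65) and LTBP1 (-1.33 ± 0.76) did not pass either. Shares of 5 of the 17 genes, ADAM9, ADAMTS20, COL14A1, COL5A1 and LAMA2, did not overlap between the species, against 36.5% over all genes (10.3% higher and 26.2% lower in buffalo). ADAMTSL1, a secreted ADAMTS-like protein without a protease domain, had 4, 3 and 1 reads in buffalo muscle and none in cattle muscle, and was too thinly read to be tested.

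Part of the junctions were found in both species. Of the 82 junctions of these genes in buffalo muscle, 29 from 19 genes had identical ends in cattle muscle, which is 35.4% of the buffalo and 13.9% of the cattle junctions. Over all genes with a named host the shares were 48.2% and 19.0%. The COL15A1 junction described above had the most reads among the shared ones, 18 in buffalo muscle and 53 in cattle muscle. By reads over all 9 libraries, cattle adipose tissue included, it was followed by an LTBP1 junction, chromosome 11, 15803018 to 15818896, with 1, 16 and 12 reads in buffalo muscle, cattle muscle and adipose tissue, the LAMA2 junction of 0.243 kb with 5, 14 and 9, an ITGA3 junction, chromosome 19, 37215182 to 37215782, with 1, 11 and 12, and the LAMA2 junction 68364871 to 68378494 with 1, 22 and 0. By the reads of the muscles alone, the last of these came directly after COL15A1. Of the 29 shared junctions, 11 were also read in cattle adipose tissue.

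Few genes gave circRNA reads in all 3 animals of a group. There were 7 of 42 in buffalo muscle (ADAM9, COL15A1, LAMA2, ADAMTSL1, ITGA6, ITGB6 and NID2), or 16.7% against 23.1% over all hosts. There were 23 of 58 in cattle muscle (39.7% against 37.5%) and 22 of 62 in cattle adipose tissue (35.5% against 35.5%). COL15A1, LAMA2 and ADAM9 were in all 3 lists, as was ITGA6.

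The mRNA level was used for buffalo muscle only, in FPKM, a level scaled to transcript length and library size. The 87 genes had 100 named transcripts, and 79 of them had a mean of at least 1 FPKM, against 84.2% of all transcripts named in the same way and 63.4% of all listed transcripts. The highest were SPARC at 440 ± 12.6 FPKM (SD, n = 3), COL3A1 at 253 ± 32.4, COL1A1 at 184 ± 45.9 and COL1A2 at 154 ± 35.5, followed by COL6A3 (94.4 ± 29.7), LAMB2 (92.0 ± 4.58), COL6A1 (91.9 ± 69.3), SPARCL1 (85.9 ± 7.28), COL4A1 (75.2 ± 9.69) and COL15A1 (69.6 ± 7.62). COL6A1 was uneven, with 172, 51.0 and 52.8 FPKM in buffalo 1 to 3. Buffalo 1 was also highest for THBS1 (41.7, 16.5 and 8.94 FPKM) and a POSTN transcript (37.3, 6.32 and 6.98 FPKM). For LAMA2 it was lowest (30.4, 52.7 and 52.5 FPKM). SPARC, COL3A1, COL1A1 and COL1A2 had no junction read in buffalo muscle.

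The 10 genes with the highest summed FPKM, between 75.2 and 440 FPKM, had 6 of the 153 junction reads of these genes in buffalo muscle. ADAM9 with 57.2 ± 7.17 FPKM had 24 of them, COL15A1 21, LAMA2 with 45.2 ± 12.8 FPKM 16 and ADAMTS20 with 6.51 ± 0.628 FPKM 9. COL5A1 (11.0 ± 1.83 FPKM) and COL14A1 (9.29 ± 3.55 FPKM), which had no circRNA read in buffalo muscle, had mRNA in all 3 animals. LAMA4 had 23.6 ± 2.24 FPKM, and ADAMTS16 had 0.541 ± 0.168 FPKM. Across the 87 genes, Spearman's rho between mRNA and junction reads was 0.16, and it was 0.24 across 5259 hosts with a named transcript. Both are across genes of the same 3 animals, and genes are not independent replicates.

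**Figure D5:**
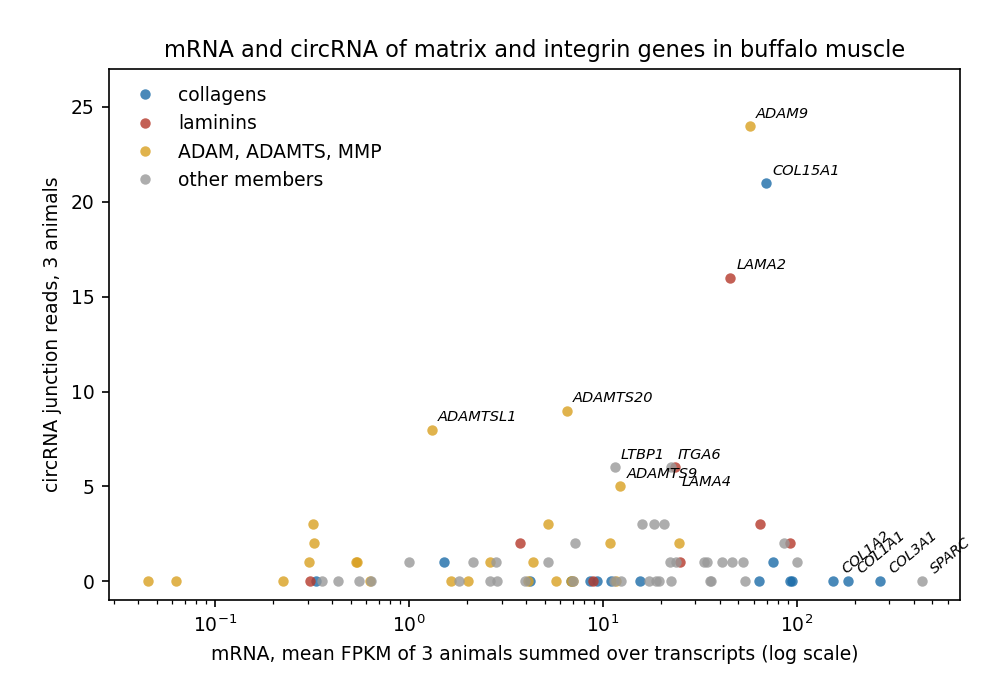
Junction reads summed over 3 buffalo muscle libraries against mRNA level (mean FPKM of 3 animals summed over the transcripts of a gene, log axis); each point is 1 of the 87 genes. SPARC, COL3A1, COL1A1 and COL1A2 lie at the right with 0 reads, while ADAM9 (24 reads), COL15A1 (21) and LAMA2 (16) lie above all others.

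Of the integrin adhesion genes, which couple integrins to the actin cytoskeleton, FERMT2, the kindlin of mesenchymal cells, had 0, 0 and 0 reads in buffalo muscle, 4, 5 and 2 in cattle muscle and 1, 5 and 0 in adipose tissue. It passed lower in buffalo than in cattle muscle, but met the read minimum through cattle muscle alone, and it did not pass between the cattle tissues (0.41 ± 0.43, limma, adjusted p = 0.701). Of 19 genes of the dystroglycan and sarcoglycan complex, which links laminin to the cytoskeleton, 7 were tested between the tissues and none passed, and 6 between the species with 1 lower in buffalo, UTRN, with 0, 3 and 1 against 20, 32 and 22 reads (-2.23 ± 0.68, adjusted p = 0.0407). The shares over all genes were 7.62% between the tissues and 18.2% lower in buffalo, so that 1 of 6 was near the background.

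Of 34 other matrix proteins, 5 were tested between the tissues and none passed, against 7.62% of all genes. The 2 that could be tested between the species, ECM2 with 0, 0 and 0 against 6, 12 and 2 reads and FREM1 with 0, 0 and 0 against 3, 8 and 3 reads, both passed lower in buffalo, as 18.2% of all genes did. Both entered through cattle muscle alone, so this count is no result about the list. Of 21 TGF-beta pathway genes, 8 were tested between the tissues and 1 was higher in muscle, the receptor BMPR2, with 7, 12 and 20 against 0, 6 and 0 reads (1.60 ± 0.50, adjusted p = 0.0308), against 5.82% of all genes, while none of 7 passed between the species. Of 22 genes that process collagen or inhibit matrix proteases, 1 was tested in each comparison and none passed.

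Of the 87 genes, 5 only begin like a matrix or integrin gene. COL4A3BP, a ceramide transfer protein, had 2, 7 and 2 reads in cattle muscle and 3, 1 and 0 in adipose tissue, and ITGB3BP, a centromere protein, 1, 2 and 7 and 1, 3 and 2. ITGB1BP1, ITGB1BP2 and ITGBL1 had 2, 1 and 5 reads in all. COL4A3BP was tested in both comparisons and ITGB3BP between the tissues, and neither passed, while the other 3 genes had too few reads to be tested.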

How the data were processed

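Libraries were made from total RNA with a TruSeq RNA kit, whose usual protocol selects polyadenylated RNA, whereas circRNAs have no poly(A) tail; how this affected their reads was not tested. The authors trimmed reads with Trim Galore, used STAR to map both species against cattle build UMD3.1, and assembled transcripts with Cufflinks 2.2.1 and Cuffmerge. The deposited circRNA tables give RPM per back-splice junction; the caller is not given in the sources used here. The deposited mRNA table gives FPKM per transcript from Cuffdiff. Columns of buffalo adipose tissue (9 over 3 tables) belong to another series and were not used here, nor were lncRNAs.

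All circRNA values were whole multiples of the RPM of 1 read (100% within 0.01 reads), which gave whole reads. RPM was summed per host gene. Genes or junctions with at least 2 reads in at least 3 of 6 libraries were tested over the whole table with limma 3.58.1 (trend) in R 4.3.3, on log2(RPM + 0.1) between cattle tissues and on log2(junction reads per 10000 + 1) between species, with Benjamini-Hochberg adjustment at 0.05. Alternatives were other pseudocounts (1 and 0.25), filters and scalings, edgeR 4.0.16 and DESeq2 1.42.0 on the recovered reads, exon junctions only, a block for the replicate number, and fits that leave out each library. The exact permutation test planned for the summed share is not given. With 200 features changed 4-fold in simulated counts, 177 junctions, 182 genes between tissues and 170 genes between species met the read minimum. Of these, limma recovered 28.2%, 30.2% and 23.5%. Libraries of a group differed beyond sampling noise (chi-square per degree of freedom 2.07 to 3.20).

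Transcripts were named through the circRNA tables. Genes named in the text are those with the most reads, transcripts, junctions or shared junctions, those called or near the threshold, called genes of the further lists, and genes that only begin like a matrix gene; a few others, such as LAMB1, ADAMTSL1 and COL1A1, were named after their values were seen. The genes, lists and markers were chosen with earlier results of these data known. Positions are given in UMD3.1, as deposited. The counts of the integrin adhesion list are left out, since 1 of its genes is not reported here.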

Additional observations from a re-analysis of the deposited data

How the results depend on the processing

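The junction count of 0 between the cattle tissues became 2 with at least 5 reads, on shares of junction reads, with edgeR and TMM, and with the replicate block, and 1 with edgeR without TMM and with DESeq2; the junctions were of ADAMTS20 and ADAMTS16, and each met the read minimum of its fit through the tissue where it is high alone. The gene count of 4 stayed between 3 and 5 under the other settings and was 2 to 4 when a library was left out, with 2 without cattle adipose 1 or cattle muscle 3. ITGB6, which met the read minimum through muscle alone, joined with edgeR and TMM. LAMA4 was lost without a filter (limma, adjusted p = 0.0857; 0.00303 to 0.211 over its 15 alternatives).

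Between the species, the count of 3 became 14 on the RPM scale and 0 with no filter on low values. It became 1 with at least 5 reads and with DESeq2, which gave COL14A1 and COL5A1 no adjusted p. Leaving out a library gave 0 to 6, with 6 without buffalo muscle 2, 0 without cattle muscle 2 and 1 without cattle muscle 1 or cattle muscle 3. The cause was not tested. The difference of the summed share was -0.40 percentage points between the cattle tissues (-0.54 to -0.32 with a library left out) and -0.018 points between buffalo and cattle muscle, where leaving out a library gave -0.10 to 0.064 and turned its sign without buffalo muscle 3, cattle muscle 2 or cattle muscle 3. Genes read in all 3 animals fell to 3 in buffalo and 14 in cattle muscle at 2 reads per library, and were 7 to 12 in buffalo muscle with a library left out, with 12 without buffalo muscle 1. Shared junctions numbered 10 at 2 reads per group and 14 to 27 with a library left out, with 14 without buffalo muscle 2.

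Same-numbered cattle libraries correlated by 0.076, 0.076 and 0.010 in their deviations, and every cattle library correlated best with its own number. Same-numbered muscles of the species, which are different animals, correlated by -0.017, -0.015 and 0.072. No label says that the number marks the animal, so the main fits between the cattle tissues were unpaired, and a possible pairing entered only in the replicate block. The replicate block gave 4 genes between the tissues, 3 between the species and a share difference of -0.40 points. Naming transcripts through another table was not run, since no other table used here pairs them with symbols. Of simulated 4-fold changes that met the read minimum, 23.5% to 30.2% were recovered. The parts of read depth and of the number of libraries in this were not separated.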
